A study of Mus musculus with 6 samples.

Results

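The genes of the mitochondrial ribosomal proteins were compared between right atria (RAs) under volume overload (VO) and RAs after sham surgery. Members were the protein-coding genes whose symbol begins with Mrpl or Mrps followed by a digit, and 78 of the 21842 protein-coding genes in the table met this rule. Of these, 49 were Mrpl genes, named for the large subunit, and 29 were Mrps genes, named for the small subunit. They lay on 17 chromosomes. A total of 77 members, 48 large and 29 small, had a mean of at least 1 FPKM (fragments scaled by gene length and library size) and were tested. The remaining member, Mrpl53 (chr6:83109040-83109939), was listed at 0 in all 6 libraries, and 88.0% of its exon bases were shared with Gm42688 and Ccdc142os.

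The mitochondrial ribosome, or mitoribosome, translates the few mRNAs of the mitochondrial genome, which encode core subunits of the respiratory chain and ATP synthase. Its ribosomal RNAs are transcribed inside the organelle, whereas its proteins are encoded in the nucleus, made in the cytosol and imported. The small subunit reads the codons and the large subunit joins the amino acids, and the nascent chains are inserted into the inner membrane, which is densely folded in heart muscle.

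All mice were C57BL/6 with the WT genotype and of either sex, and RAs were taken at postnatal day 21. The VO group (n = 3 libraries) had received a fistula between the abdominal aorta and the inferior vena cava at postnatal day 7, and the sham group (n = 3 libraries) had received a sham operation at that age. The comparison asks how VO bears on gene expression in the RA during postnatal development. Nothing used here states that the libraries of a group came from separate animals, so the p-values measure the spread between these libraries.

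The libraries held 15963082 to 17237903 fragments on genes. The atrial cardiomyocyte markers were all present, with a median of 1844 FPKM over the 8 genes. Libraries stood apart within both groups: the first principal component, with 36.0% of the variance, had sham 1 at an end and VO 1 at the other, and the second, with 25.1%, set VO 3 apart. VO 1 had the highest summed level of the 10 leukocyte markers, 1223 FPKM against 213 to 325 FPKM in the other 5 libraries, and VO 3 had 254 FPKM of the brown adipocyte gene Ucp1, which was listed at 0 in the other 5. The summed level of the 6 white adipocyte markers was also highest in VO 3, at 453 FPKM against 34.3 to 47.3 FPKM in the other 5. The 5 red cell markers summed to 6972 FPKM in sham 1 and 8580 FPKM in VO 1, against 695 to 2382 FPKM in the remaining libraries. The 3 ventricular markers summed to 306, 119 and 234 FPKM in sham and 90.8, 104 and 142 FPKM in VO. Values without sham 1 and VO 1 together, a pair chosen after the data were seen, stand beside most groups and genes below. They describe how much of a difference rests on these libraries and are no independent check of it.

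Mitoribosomal protein genes are known to share promoter elements bound by NRF1, ETS factors such as GABPA, and YY1. RefSeq windows of 300 bases (GRCm38.p6), from 250 before to 50 after the start, were matched for 69 of the 78 members. A gene with several RefSeq starts has a window for each, and was counted where any of them held the letters. The ETS letters CCGGAAG, read on both strands, were in 26 of them (37.7%), against 20.3% of the 8914 tested protein-coding genes with a window and 9.93% of all 27025 genes with one. The NRF1 letters GCATGCGC was in 8 members (11.6%), against 6.18% of tested genes and 3.05% of all genes. The YY1 letters AAGATGGC were in 12 members (17.4%), against 5.37% and 3.19%. At least 1 of the 3 motifs was in 38 members (55.1%), against 28.8% of tested genes. None of these motifs contains another, and a match describes letters and not a bound site. Stretches of 60 bases upstream of the start are shown for a member with 2 of the motifs and for the member with the highest log2 fold change. Capitals mark the motif letters, and each stretch is written 5′ to 3′ on the strand of the gene.
Mrpl22, chr11:58171584-58171643, plus strand: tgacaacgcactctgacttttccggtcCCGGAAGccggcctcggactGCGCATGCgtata
Mrpl52, chr14:54426835-54426894, plus strand: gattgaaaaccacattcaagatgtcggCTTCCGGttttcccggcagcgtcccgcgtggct
The ETS letters began 53 bases before the RefSeq start in Mrpl22 and 47 in Mrpl52, and in Mrpl22 the NRF1 letters began 33 bases before it. Split by motif, the members' median log2 fold change was -0.43 with the ETS letters and -0.30 without, -0.30 and -0.32 for NRF1, and -0.39 and -0.32 for YY1.

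Of the 77 tested members, 75 were lower in VO than in sham, all but Mrpl24 and Mrpl52, while 51.5% of the 12627 tested genes were lower by any amount. The median log2 fold change (VO against sham, on log2(FPKM + 0.1)) was -0.36 over the members, and -0.01 over all tested genes. No member passed the adjusted threshold of 0.05 in limma's test, and their adjusted p-values ran from 0.404 to 0.987. Over all tested genes 1 passed, which is 0.00792%. At an unadjusted p under 0.05, 20 members (26.0%) were lower, 13 large and 7 small, against 8.08% of all tested genes. No member was higher at that p, against 3.89% of all tested genes. In 24 members (31.2%), 17 large and 7 small, every VO library lay below every sham library, against 12.9% of all tested genes. No member had every VO library above the sham libraries, against 8.25%.

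**Figure D1:**
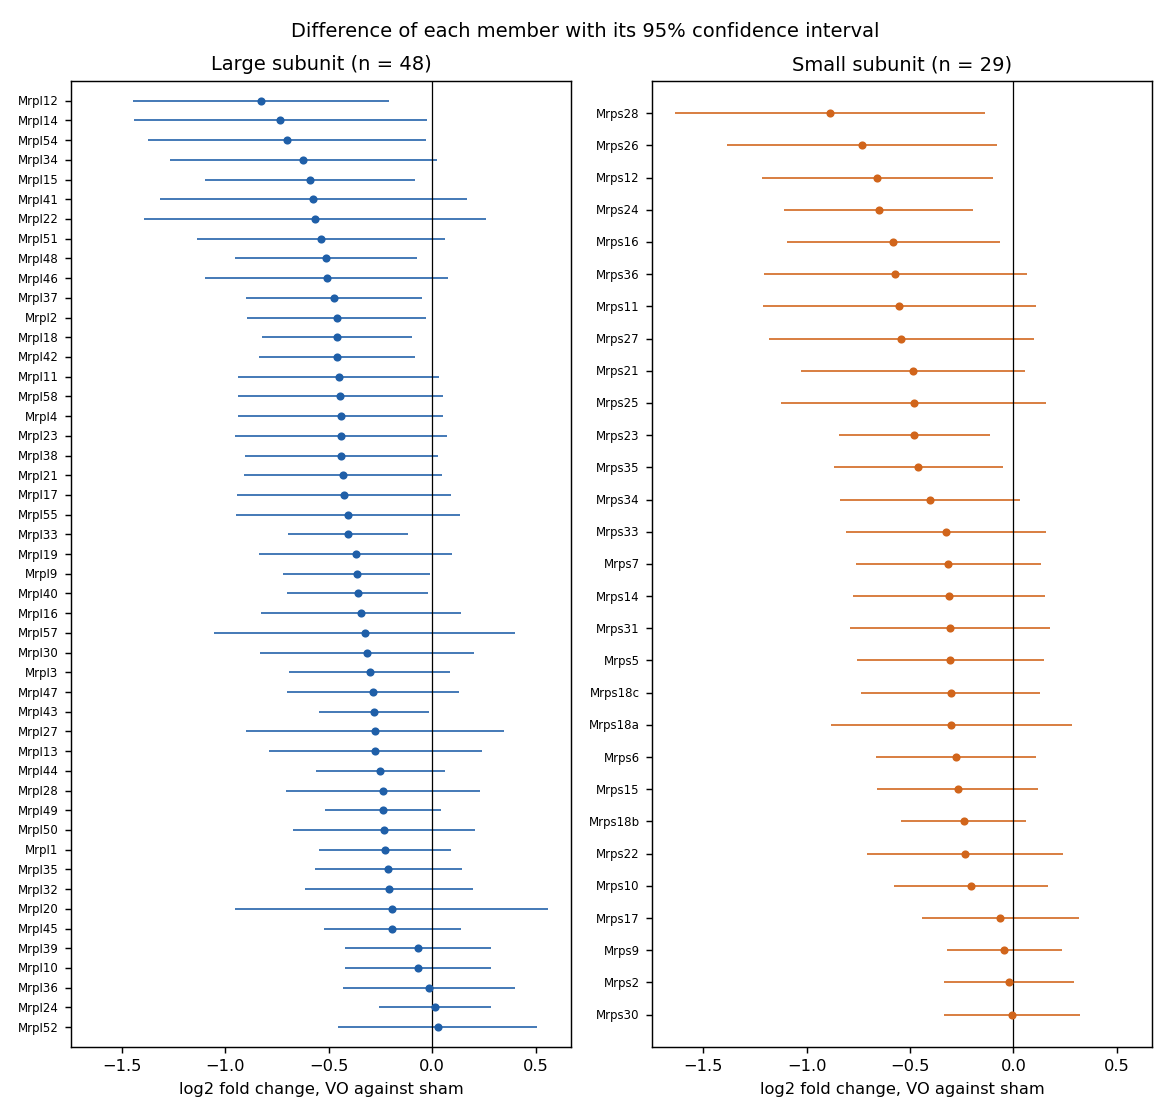
The log2 fold change of each tested member, VO against sham, with its 95% confidence interval from limma, for the 48 large subunit genes on the left and the 29 small subunit genes on the right. Points lie to the left of 0 for 75 of 77 members, between -0.89 for Mrps28 and 0.03 for Mrpl52, and the intervals of 20 members lie wholly below 0.

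The level of the members followed the library as well as the group. Relative to each gene's mean over the 6 libraries, the large subunit genes averaged 0.45, 0.05 and 0.05 on the log2 scale in sham 1, 2 and 3, and -0.52, -0.06 and 0.04 in VO 1, 2 and 3. For the small subunit genes the averages were 0.46, 0.06 and 0.05 in the sham libraries and -0.50, -0.08 and 0.00 in the VO libraries. Sham 1 was thus high and VO 1 low, and the other 4 libraries lay close together. Sham 1 was the highest library for 69 of the 77 members, and VO 1 was the lowest for 69 of 77. Leaving both out therefore makes most differences smaller by construction. With both left out, 58 of 77 members were still lower in VO, but the median log2 fold change was -0.09 for the large and -0.07 for the small subunit, and 6 members had an unadjusted p under 0.05, of which 1 was higher in VO. Without sham 1 alone 2 members had such a p, and without VO 1 alone 6 did.

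**Figure D2:**
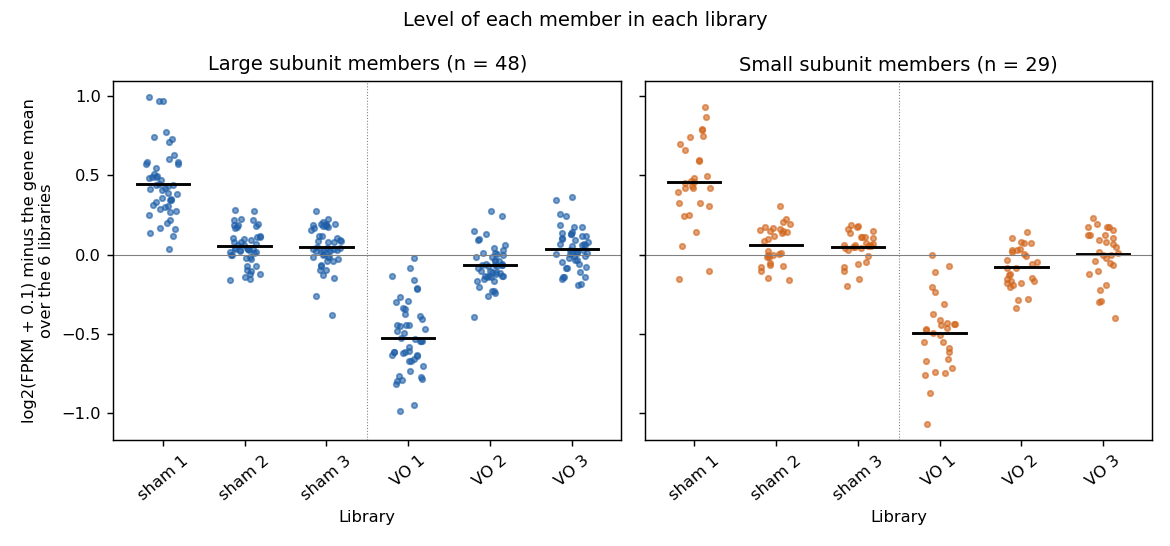
Each point is a member, as its log2(FPKM + 0.1) in a library minus its mean over the 6 libraries, and black lines are the means over the members of a subunit. Both subunits are high in sham 1 (means of 0.45 and 0.46) and low in VO 1 (-0.52 and -0.50), with the other 4 libraries between -0.08 and 0.06.

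Other gene lists moved with the same libraries. The 8 atrial cardiomyocyte markers averaged 0.59, 0.21 and 0.22 in the sham libraries and -0.84, 0.07 and -0.26 in the VO libraries, and 8 of 8 were lower in VO, with a summed level of 20803 to 27279 FPKM in sham and 9740 to 18052 FPKM in VO. The 8 tested leukocyte markers averaged 1.61 in VO 1 and -0.44 to 0.01 elsewhere, and all 8 were higher in VO. The summed level of the whole list was 213 to 256 FPKM in sham and 244 to 1223 FPKM in VO, and Cd3e, which was not tested, was at 0.28 FPKM or less in every library. In bulk RNA, fewer cardiomyocytes and less RNA per cardiomyocyte cannot be told apart, and the part of either list in the members' difference was not tested.

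**Figure D3:**
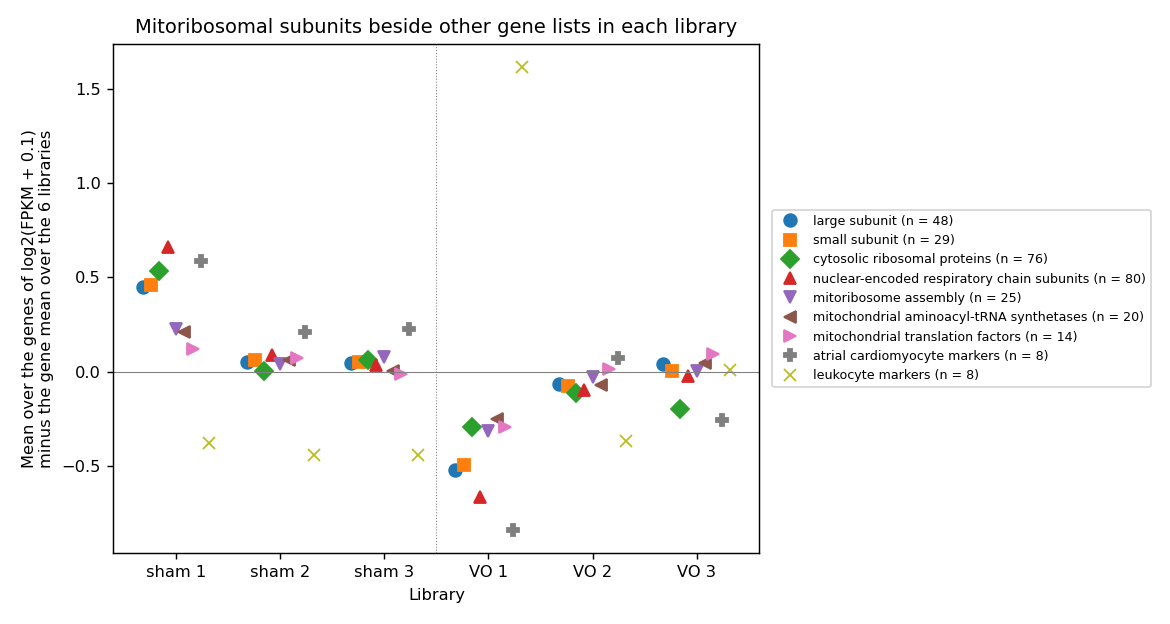
The mean over the genes of each list of log2(FPKM + 0.1) minus the gene mean, by library, with each list as a symbol and the number of tested genes in the key. Both subunits, the cytosolic ribosomal proteins, the respiratory chain and the cardiomyocyte markers are highest in sham 1 and lowest in VO 1, while the leukocyte markers are highest in VO 1, at 1.61.

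The subunits were compared within each library, where scaling between libraries cancels. The mean log2 level of the large subunit genes exceeded that of the small subunit genes by 0.375, 0.377 and 0.382 in the sham libraries and by 0.359, 0.398 and 0.421 in the VO libraries. The means were 0.378 ± 0.0038 (SD, n = 3) in sham and 0.393 ± 0.031 (SD, n = 3) in VO, and the groups overlapped. The excess was thus 0.015 larger in VO, which is less than the pooled SD of 0.022. That difference is more than the SD in sham and less than the SD in VO. The medians corresponded to 22.5% less in VO for the large and 19.7% less for the small subunit. Some symbols mislead: Mrps30 and Mrps18a encode proteins of the large subunit, and Mrps36 encodes a protein now assigned to the oxoglutarate dehydrogenase complex. With Mrps30 and Mrps18a counted as large and Mrps36 left out, the excess was 0.295 ± 0.022 in sham and 0.328 ± 0.036 in VO (SD, n = 3). It differed by 0.033, which is more than the SD in sham and the pooled SD, and less than the SD in VO. The groups overlapped.

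Levels spread widely among the members. Mean FPKM, a level per length of gene, ran from 2.52 for Mrps10 to 60.5 for Mrps6, which is a 24.0-fold range, with a median of 14.8 for the large and 8.11 for the small subunit. A total of 21 members were above 20 FPKM and 13 were under 5 FPKM. Mrps6 (chr16:92058270-92112227), of the small subunit platform, had 70.9, 60.7 and 66.3 FPKM in sham and 44.0, 65.9 and 55.0 FPKM in VO, and the groups overlapped. Mrps10 (chr17:47368887-47381417), of the head, had 2.99, 2.51 and 2.61 FPKM in sham and 1.999, 2.63 and 2.39 FPKM in VO. The lowest large subunit gene was Mrpl19, at a mean of 3.20 FPKM, and the highest was Mrpl18, at 45.8 FPKM.

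In the large subunit, the L7/L12 stalk recruits the translation factors. Its 3 members Mrpl10, Mrpl11 and Mrpl12 had a median log2 fold change of -0.45, or -0.12 without sham 1 and VO 1, and 1 of 3 had an unadjusted p under 0.05. For this and the sites below, the share of all tested genes lower at such a p was 8.08%. Mrpl12 (chr11:120484613-120489065), the stalk protein itself, had 44.6, 31.3 and 32.3 FPKM in sham and 13.5, 24.8 and 24.0 FPKM in VO. Every VO library was below every sham library. The means were 36.1 ± 7.4 FPKM in sham and 20.7 ± 6.3 FPKM in VO (SD, n = 3), a log2 fold change of -0.83 ± 0.26 (SE) with an adjusted p of 0.404 in limma, and without sham 1 and VO 1 it was -0.38. By contrast Mrpl10, which anchors the stalk, had a log2 fold change of -0.07 ± 0.15 (SE); the difference between these genes was not tested.

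The peptidyl transferase core, where amino acids are joined, was represented by Mrpl2, Mrpl3, Mrpl4, Mrpl16 and Mrpl27. All 5 were lower in VO, the log2 fold change having a median of -0.34 and a range of -0.46 to -0.28, and only Mrpl2 had an unadjusted p under 0.05. Without sham 1 and VO 1 the median was -0.05, with 4 of 5 lower, and without VO 1 alone it was -0.16. The rim of the exit tunnel, through which the new chain leaves, had 7 members with a median of -0.29, of which 6 were lower and none had such a p, and a median of -0.07 without sham 1 and VO 1. Among them Mrpl24 (chr3:87919506-87923672) had 18.1, 14.8 and 15.4 FPKM in sham and 15.2, 17.2 and 16.2 FPKM in VO, a log2 fold change of 0.01 ± 0.12 (SE). Its groups overlapped, and 26.3% of its exon bases were shared with Rrnad1 on the other strand.

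With all libraries, the central protuberance, which faces the small subunit, had the lowest median of the 5 functional sites listed. Its 5 members Mrpl18, Mrpl38, Mrpl40, Mrpl46 and Mrpl48 were all lower in VO, with a median of -0.46 and a range of -0.51 to -0.36, and 3 of 5 had an unadjusted p under 0.05. No member of this site had such a p without sham 1 or without VO 1. The median was -0.26 without VO 1 and -0.15 without both, with 5 of 5 still lower. For the L7/L12 stalk it was -0.45 with all libraries and -0.30 without VO 1, so the order of these sites changed. Mrpl18 (chr17:12911349-12916345) had 61.0, 46.8 and 51.3 FPKM in sham and 33.0, 38.4 and 44.3 FPKM in VO. The groups did not overlap, and the log2 fold change was -0.46 ± 0.15 (SE), with an adjusted p of 0.404 in limma, and -0.25 without sham 1 and VO 1. For Mrpl48 (chr7:100545751-100608301), the levels were 8.63, 6.58 and 7.02 FPKM in sham and 3.96, 5.97 and 5.71 FPKM in VO, again without overlap, and the log2 fold change was -0.51 ± 0.19 (SE), or -0.22 without those libraries.

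Other large subunit genes with small p-values were Mrpl33 and Mrpl42. Mrpl33 (chr5:31596935-31664384), which has a bacterial homologue, had 5.76, 5.49 and 5.47 FPKM in sham and 3.62, 4.60 and 4.37 FPKM in VO. The SD of Mrpl33 was 0.16 FPKM in sham and 0.52 FPKM in VO (n = 3), with VO 1 lowest. Its log2 fold change was -0.41 ± 0.12 (SE), with an adjusted p of 0.404 in limma. It was -0.30 without VO 1 and -0.28 without sham 1 and VO 1. Mrpl42 (chr10:95480805-95501940), a protein found only in mitochondrial ribosomes, had 59.5, 47.8 and 50.0014 FPKM in sham and 30.9, 41.3 and 42.7 FPKM in VO. The groups did not overlap, and the log2 fold change was -0.46 ± 0.16 (SE), or -0.22 without sham 1 and VO 1. The 2 members that were higher in VO differed by less than their error, as Mrpl52 (chr14:54426909-54429756) had 23.9, 18.5 and 14.3 FPKM in sham and 18.4, 22.2 and 16.4 FPKM in VO, a log2 fold change of 0.03 ± 0.20 (SE).

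In the small subunit, the decoding centre and head check the match of codon and tRNA. All 8 of their members were lower in VO, the log2 fold change having a median of -0.31 and a range of -0.66 to -0.04, and 2 of 8 had an unadjusted p under 0.05. The median was -0.15 without VO 1 and -0.03 without sham 1 and VO 1, with 7 of 8 lower. Mrps24 (chr11:5703983-5715680), the homologue of bacterial S3 in the head, had 43.0, 29.4 and 26.5 FPKM in sham and 19.0, 23.2 and 19.5 FPKM in VO. No VO library reached the lowest sham library, and the log2 fold change was -0.65 ± 0.19 (SE) with an adjusted p of 0.404 in limma, and -0.39 without sham 1 and VO 1. Mrps12 (chr7:28739641-28741820), the homologue of S12 at the decoding site, had 30.0, 19.4 and 18.01 FPKM in sham and 10.9, 14.3 and 16.9 FPKM in VO, which is a log2 fold change of -0.66 ± 0.24 (SE), or -0.26 without those libraries. At the other end of this group Mrps9, of the head, differed by -0.04 ± 0.12 (SE).

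Beyond the head, Mrps28 had the most negative log2 fold change of the 77 members. Mrps28 (chr3:8802146-8923918) had 57.9, 35.0 and 34.6 FPKM in sham and 14.4, 30.9 and 24.7 FPKM in VO. The means were 42.5 ± 13.3 FPKM in sham and 23.4 ± 8.3 FPKM in VO (SD, n = 3). Its groups did not overlap, yet the log2 fold change of -0.89 ± 0.32 (SE) ran from -1.12 to -0.58 when each library was left out in turn and was -0.33 without sham 1 and VO 1. Mrps23 (chr11:88204388-88211507), found only in mitochondrial ribosomes, had 71.6, 57.9 and 56.3 FPKM in sham and 37.0, 47.9 and 48.5 FPKM in VO, a log2 fold change of -0.48 ± 0.15 (SE). Mrps16 (chr14:20389304-20393634) had 12.7, 8.45 and 8.12 FPKM in sham and 5.16, 6.38 and 7.80 FPKM in VO, a log2 fold change of -0.58 ± 0.22 (SE). Both genes had sham 1 highest and VO 1 lowest, and without these libraries the log2 fold changes were -0.24 and -0.23.

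The S18 family has 3 genes in mitochondria, with Mrps18a in the large subunit and the other two in the small. Mrps18a, Mrps18b and Mrps18c had log2 fold changes of -0.30, -0.24 and -0.30, none with an unadjusted p under 0.05. Mrps18b had 5.08, 5.08 and 4.82 FPKM in sham and 4.35, 3.61 and 4.74 FPKM in VO without overlap, and 30.5% of its exon bases were shared with Gm16279 on the other strand. Mrps30 (chr13:118378381-118387252), of the large subunit despite its name, had 3.47, 3.86 and 4.35 FPKM in sham and 3.86, 3.44 and 4.32 FPKM in VO, a log2 fold change of -0.01 ± 0.14 (SE) with overlapping groups. Mrps36 had 45.0, 30.1 and 25.6 FPKM in sham and 16.0, 23.3 and 28.3 FPKM in VO, and its log2 fold change was -0.57 ± 0.27 (SE), or -0.11 without sham 1 and VO 1.

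The members were also grouped by origin. The genes with a bacterial homologue had a median log2 fold change of -0.37 in the large subunit (30 genes) and -0.31 in the small subunit (16 genes). The genes found only in mitochondrial ribosomes had -0.36 in the large (17 tested genes) and -0.43 in the small subunit (10 genes). Without sham 1 and VO 1 these medians were -0.06, -0.04, -0.10 and -0.11 in the same order. A further 5 mitoribosome proteins carry other symbols, and all of them were lower in VO, with a median of -0.50, or -0.15 with 4 lower without sham 1 and VO 1. Gadd45gip1, a large subunit protein at the exit tunnel, had 7.66, 6.40 and 6.33 FPKM in sham and 3.62, 4.11 and 4.95 FPKM in VO. Its groups did not overlap, and the log2 fold change of -0.68 ± 0.15 (SE, adjusted p of 0.325 in limma) was still -0.49 without sham 1 and VO 1. The ribosomal RNAs of the complex stood at different values, with log2 fold changes of 0.08 ± 0.21 (SE) for mt-Rnr1 and -0.05 ± 0.21 (SE) for mt-Rnr2.

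By median log2 fold change with all 6 libraries, genes that serve the mitoribosome were nearer to the background than its proteins. The 25 tested assembly factors had a median log2 fold change of -0.17, with 24 lower and 4 at an unadjusted p under 0.05. The 14 tested translation factors had a median of -0.08 with 10 lower and 1 at such a p, and the 20 mitochondrial aminoacyl-tRNA synthetases and related enzymes, which charge the tRNAs, had -0.18 with 17 lower and 2 at such a p. Of all tested genes, 8.08% were lower at such a p. The groups did not overlap, with VO lower, in 28.0% of the assembly factors and 30.0% of the synthetases. That share was 7.14% for the translation factors, 31.2% for the members and 12.9% for all tested genes. Other complexes lay as low as the mitoribosome or lower. The 76 tested cytosolic ribosomal proteins had a median of -0.37, with 75 lower and 33 at such a p. The 80 tested nuclear-encoded respiratory chain subunits had -0.49, with 80 lower and 32 at such a p. Of the 77 members, 20 were lower at such a p. Every VO library lay below every sham library for 46 of these cytosolic ribosomal proteins and 44 of these respiratory chain subunits. That held for 24 of the members, so the groups separated less often in the mitoribosome than in either complex. Without sham 1 and VO 1 the medians were -0.16 for the cytosolic ribosomal proteins and -0.12 for the respiratory chain, with 66 and 62 lower, and -0.08, 0.05 and -0.06 for the assembly factors, translation factors and synthetases. The members' median in that fit was -0.08. Without VO 1 alone the respiratory chain stood at -0.27. In VO 3 the lists parted, since the cytosolic ribosomal proteins averaged -0.20 there and the large mitoribosomal subunit 0.04. These medians are descriptions, and no test of the difference between lists was made.

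Gene length went with the differences over all genes. Of the tested genes up to 1500 bases long the median log2 fold change was -0.17, and it was -0.11 from 1500 to 3000 bases, -0.01 from 3000 to 6000 bases and 0.07 above 6000 bases. The members in the same ranges had medians of -0.49 (21 genes), -0.33 (27 genes), -0.31 (17 genes) and -0.36 (12 genes), below all tested genes in each range. Across genes, Spearman's rho of the log2 fold change with length was 0.09 over the 48 large and 0.47 over the 29 small subunit genes, and 0.25 over all tested genes. Genes within the same libraries are not independent replicates, so these are descriptions. After the trend with level and length had been removed in each library, the medians were -0.29 for both subunits and 18 members had an unadjusted p under 0.05.

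**Figure D4:**
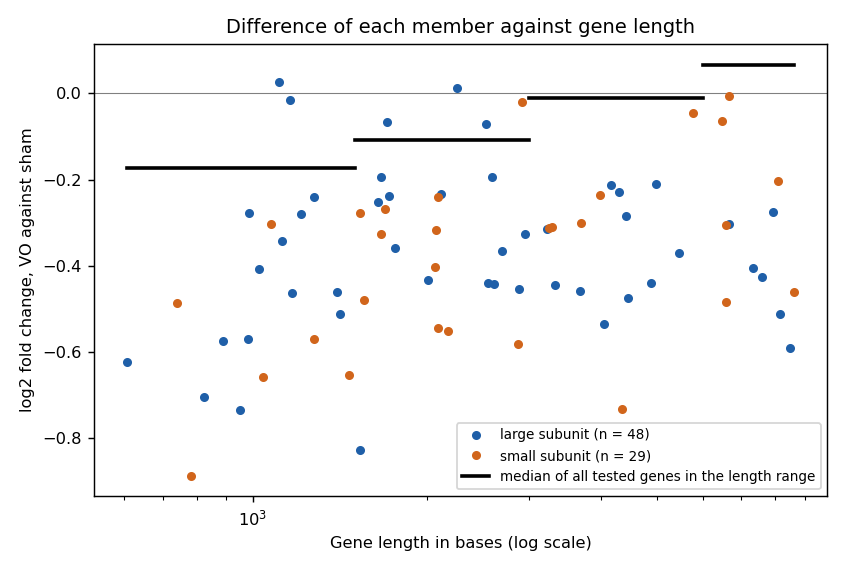
The log2 fold change of each tested member, VO against sham, against gene length in bases on a log axis, with black lines for the median of all tested genes in 4 length ranges. Members lie mostly under the line of their range, with medians of -0.49, -0.33, -0.31 and -0.36 from short to long.

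The split of all genes depended on the scaling between libraries. On the values as deposited, 1020 of the 1511 genes with an unadjusted p under 0.05 were lower in VO, whereas with TPM (each library scaled to the same sum) 489 of 1570 were lower, and with fragment totals 631 of 1573 were. The median of all tested genes was 0.13 with TPM and the medians of the large and small subunit -0.23 and -0.18, and 68 of 77 members were lower. Relative to the median of all genes, the members' median was -0.35 on the values as deposited, with TPM and with fragment totals, and -0.31 with quantile normalization.

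**Figure D5:**
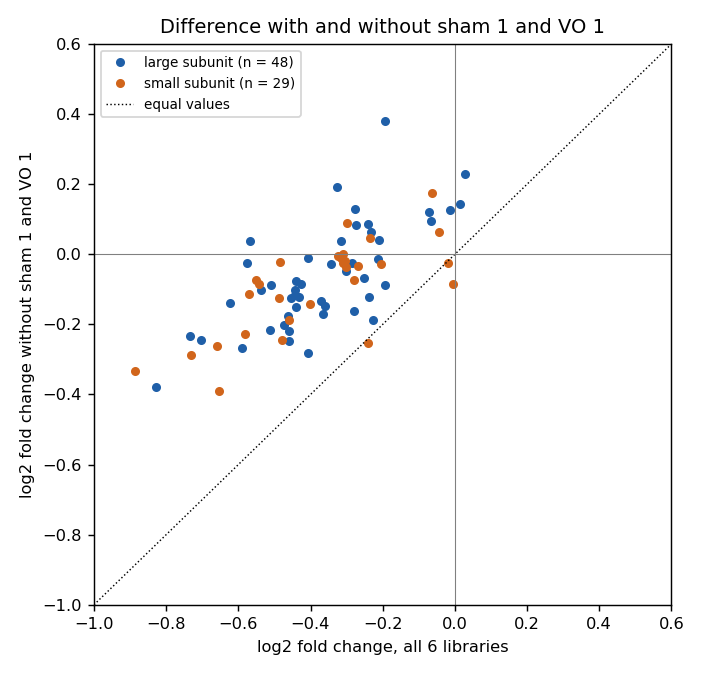
The log2 fold change of each tested member with all 6 libraries on the horizontal axis and without sham 1 and VO 1 on the vertical axis, with a dotted line where both are equal. With both libraries left out, the members spread around medians of -0.09 (large) and -0.07 (small), and 58 of 77 remain under 0.

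Many members share their start region with another gene. In 33 of the 77 tested members (42.9%) a gene on the other strand began within 1000 bases, against 15.8% of the 11314 tested protein-coding genes. Mrpl46 and Mrps11, of the 2 subunits, begin 412 bases apart, and their log2 fold changes were -0.51 and -0.55. They shared 173 exon bases with each other, 12.2% of those of Mrpl46 and 8.0% of those of Mrps11. Their counts may therefore hold the same reads. Such neighbours did not always go together, as Mrpl51 had -0.54 and its neighbour Ncapd2 0.30, and Mrpl36 had -0.01 and its neighbour Ndufs6, of the respiratory chain, -0.93. The span of 41 members overlapped another gene, and without strand in the counts, which the sources used here do not state, reads of the overlapping genes cannot be told apart. Among the 37 members whose span overlapped no other gene, 36 were lower in VO, with a median of -0.33. Of these 37, 8 (21.6%) were lower at an unadjusted p under 0.05, against 26.0% of all 77 members and 8.08% of all tested genes. Spans are those of the table: in GENCODE vM21 Mrpl43, among the 37, shared 33.4% of its exon bases with Twnk. Without sham 1 and VO 1 the median of the 37 was -0.03, with 26 lower. Lower members described above also shared exon bases with other genes. The shares included 36.0% in Mrpl19, 23.2% in Mrps18c, 19.9% in Mrps6, 15.4% in Mrps24 and 14.05% in Mrpl10. They also included 13.05% in Mrpl12, 10.1% in Mrpl18, 8.69% in Mrpl48 and 3.56% in Mrpl33. By contrast, Mrpl42, Mrps12, Mrps16, Mrps23 and Mrps28 shared none.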

How the data were processed

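RNA-seq of RAs from 3 sham and 3 VO libraries was analysed. The authors aligned reads with HISAT2 2.0.5, counted them with featureCounts 1.5.0-p3 and deposited FPKM per gene with a gene length in bases; the submitters' notes name GRCm38. The deposited FPKM was already scaled across libraries (equal median-of-ratios factors, 1.00 each), and 100% of values above 0 gave whole fragments within 0.01. The study tested counts per gene, which were not used here. Here the median of ratios was applied to FPKM, genes with a mean under 1 were dropped, and log2(FPKM + 0.1) was tested in R 4.3.3 by limma 3.58.1 (lmFit, eBayes with trend), with the group as the only term, two-sided p-values and Benjamini-Hochberg adjustment across the 12627 genes tested. The scaling factors were centred on a geometric mean of 1 after a first run without centring, in which 12621 genes were tested; both runs called 1511 genes and 20 members at an unadjusted p under 0.05. An exact permutation of 3 against 3 libraries cannot go below 0.1. The fit was tested on simulated data. The table held 54093 complete genes, and 1 incomplete line was left out.

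Members and lists were chosen with earlier results of these data known. The named members were the 5 with the smallest p in each direction and the 2 highest and 2 lowest levels in each subunit, the S18 genes, Mrps30, Mrps36 and those under the filter. Mrpl2, Mrpl10, Mrpl22, Mrpl36, Mrpl43, Mrpl46, Mrpl51, Mrps9 and Mrps11, and neighbours and list members beside them, were named after their values were seen. The numbers of the replicates do not pair the libraries: deviations from the group means correlated across genes, for same-numbered sham and VO libraries, at -0.11, 0.01 and -0.03. Alternatives were other pseudocounts, filters, scalings and variance models, a replicate block, each library left out, and, chosen after the data were seen, sham 1 and VO 1 left out together and factors not centred.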

Additional observations from a re-analysis of the deposited data

How the results depend on the processing

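The medians of both subunits stayed below 0 under every alternative run. The 20 members with an unadjusted p under 0.05 became 12 with TPM. Of the 37 members whose span overlapped no other gene, 8 (21.6%) were lower at such a p, against 26.0% of all 77 members and 8.08% of all tested genes. The count over all 77 members ran from 2 to 30 when each library was left out in turn (2 without sham 1, 6 without VO 1, 30 without VO 3). The medians of the large and small subunit were -0.25 and -0.22 without sham 1, -0.22 and -0.17 without VO 1, and -0.49 and -0.46 without VO 3. Over all tested genes the count of 1511 ran from 855 to 1998 in those fits. With sham 1 and VO 1 left out together, chosen after the data were seen, it was 964, with 6 members and medians of -0.088 (large) and -0.074 (small). With the replicate block the counts were 932 and 3; since the numbers do not pair the samples, this does not describe a weaker effect. The difference of 0.015 in the excess of large over small subunit was 0.037 with a mean of at least 5 FPKM and 0.046 with the trend with level and length removed. Among the named members, Mrps30 changed sign to 0.13 with TPM and 0.085 with fragment totals, and Mrps18a went from -0.30 to 0.0895 without sham 1 and VO 1, where 58 of all 77 members were lower; with each library left out Mrpl24 ran from -0.043 to 0.10, Mrpl52 from -0.16 to 0.21 and Mrps30 from -0.086 to 0.075. The causes were not tested. With 3 libraries a group, and 90 to 3409 fragments per tested member and library, the spread between libraries limits what could pass the adjusted threshold.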
